A study of Mus musculus with 8 samples.

Results

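The FoxO transcription factors and genes known as their targets were followed in the occipital cortex of fasted and fed mice. The 10 genes were chosen by name: the 4 factor genes Foxo1, Foxo3, Foxo4 and Foxo6, and the target genes Txnip, Irs2, Pik3ip1, Fbxo32, Ccng2 and Sesn3. These genes and the lists below were chosen with earlier results of these data known. Counts of calls among them are therefore descriptions and no independent test. All 10 stood on 1 row each in a table of 24344 gene symbols, and all 10 were among the 12377 genes that reached 1 FPKM in at least 4 libraries and were tested. FPKM, the unit of all levels here, scales the fragments of a gene to its transcript length and to the depth of the library, so that levels can be set side by side between genes. RNA-seq was done on homogenates of occipital cortex, the home of primary visual cortex, from C57BL/6J animals aged 35 days after birth. Food was withheld for 48 h before 4 of the 8 libraries (fasted) and given ad libitum before the other 4 (fed), and no other allele or agent is given for either group. The labels do not say whether each library came from a separate animal, so p-values measure the spread between these libraries.

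FoxO factors are forkhead transcription factors held in check by insulin and growth factors. When insulin is present, the kinase AKT acts downstream of the receptor, its substrate proteins and PI3K. It phosphorylates most FoxO factors, which then bind 14-3-3 proteins and leave the nucleus through exportin. When insulin falls, as in fasting, these factors return to the nucleus and turn on genes of nutrient saving, growth arrest, protein breakdown and stress defence. This control acts on the protein, so that the RNA of a factor says nothing of where the protein is. Foxo6 is known as a member of the family enriched in the brain, and this account of export is not meant for it.

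The FoxO factors bind a core that reads GTAAACA, and the related insulin response element holds CAAAACA. RefSeq windows around the gene start (250 bases before to 50 after, GRCm38.p6) were given for 7 of the 10 genes, Foxo1, Foxo3, Txnip, Irs2, Pik3ip1, Ccng2 and Sesn3. They were searched on both strands for these cores and for CACGTG, the E-box known from glucose-sensing factors. The core GTAAACA was found in 1 of the 7 windows, that of Txnip, and in 3.65% of all 32851 windows. CAAAACA was found in 2 of the 7, Irs2 and Ccng2, and in 6.28% of all windows, and CACGTG in 1 of the 7, Irs2, and in 7.15% of all. The bases before the RefSeq start are shown for the 3 genes whose windows hold a core: Txnip (chr3:96557707-96557956, plus strand, upstream of the gene), Irs2 (chr8:11008930-11009029, minus strand, upstream of the gene) and Ccng2 (chr5:93267543-93267572, plus strand, in a 5′ UTR exon of a longer GENCODE transcript). Capitals mark these motifs, which in Irs2 are CACGTG and, read on the other strand, CAAAACA.
Txnip: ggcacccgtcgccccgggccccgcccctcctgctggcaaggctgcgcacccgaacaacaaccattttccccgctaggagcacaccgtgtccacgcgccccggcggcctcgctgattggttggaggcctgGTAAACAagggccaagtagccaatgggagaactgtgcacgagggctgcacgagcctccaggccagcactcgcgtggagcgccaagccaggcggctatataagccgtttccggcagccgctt
Irs2: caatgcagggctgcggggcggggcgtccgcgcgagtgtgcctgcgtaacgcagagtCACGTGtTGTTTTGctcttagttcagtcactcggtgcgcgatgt
Ccng2: gggcgtcgcagactCAAAACAaaaacaagg
The GTAAACA of Txnip lies 121 to 115 bases before its start, the CAAAACA of Irs2 37 to 31 bases and that of Ccng2 16 to 10 bases before theirs. A match is a run of letters and no measured binding, and a window without a match says only that these letters are not in it.

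The depth estimated from the steps in the lowest values was 17300000 to 21600000 fragments per library. Over all tested genes 9.56% were called higher in fasted cortex and 16.3% lower (limma, Benjamini-Hochberg adjusted p under 0.05), so that 37% of the calls were rises. This balance followed the scaling of the libraries: rises were 47.5% of calls after median-ratio scaling, 48.4% after quantile scaling, 49.9% with offsets for GC content and length, and 74.8% after scaling to equal sums. Equal-sum scaling moved the median change of all genes from -0.02 to 0.08 (log2) and is set by the FPKM total, which was 360010 in ad libitum replicate 2 and 253470 to 304931 in the others. Libraries of odd replicate number held Y-linked transcripts and those of even number Xist, while ad libitum replicate 3 held both (Xist at 32.2 FPKM, Ddx3y at 5.67 FPKM). Without that library Txnip and Pik3ip1 were still called (limma adjusted p = 0.000782 and 0.0207). Same-numbered libraries deviated together from their group means over all tested genes, but so did some of unlike number. Ad libitum replicate 1 correlated at 0.381 with fasted replicate 3, beside 0.382 for ad libitum 3 with fasted 3. Over autosomal coding genes ad libitum 2 correlated at 0.227 with fasted 1 and at 0.193 with fasted 2. Calls with the replicate block therefore rest on an assumed pairing. A fit that takes the replicate number as a block called 14.3% of all tested genes higher and 22.1% lower (36.4% in either direction, against 25.8% without the block).

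None of the 4 factor genes passed the test. In fed cortex Foxo3, the factor linked to longevity and cell stress, stood at 10.7 FPKM ± 0.933 (SD, n = 4), Foxo6 at 3.93 ± 0.553, Foxo1, the main factor of insulin action in the liver, at 3.77 ± 0.166 and Foxo4 at 3.37 ± 0.267 (SD, n = 4 each). Foxo3 thus made up 49.1% ± 2.21 of the summed FoxO level in fed and 48.3% ± 2.05 in fasted libraries (SD, n = 4 each). Among the other 3 the fed libraries of Foxo6 overlapped both others, while every fed Foxo1 value lay above every fed Foxo4 value. Fewer cells of a type and less RNA per cell cannot be told apart in such homogenates, here or in any result that follows.

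**Figure D1:**
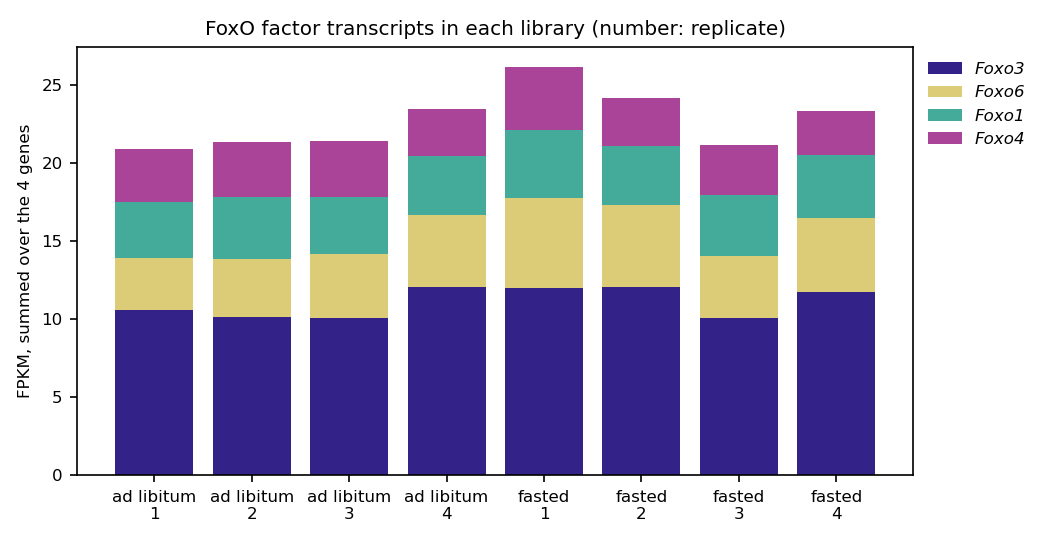
Stacked bars of the FPKM of Foxo3, Foxo6, Foxo1 and Foxo4 in each of the 8 libraries, named by group and replicate number. The sum lies between 20.9 and 26.1 FPKM, Foxo3 is the tallest segment of every bar, and fasted replicate 1 has the highest sum.

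Foxo6 had the widest separation among the factors. It was at 3.34, 3.68, 4.08 and 4.62 FPKM in ad libitum replicates 1 to 4 and at 5.79, 5.24, 3.95 and 4.77 in fasted replicates 1 to 4. Fasted replicate 3 lay within the fed range and the other 3 fasted libraries above it, so that the groups overlapped. The difference was 0.27 on the scale of log2(FPKM + 1) with SE 0.105, and limma's adjusted p was 0.0844. It was called without fasted replicate 3 (adjusted p = 0.0321), without ad libitum replicate 4 (0.0264) and after equal-sum scaling (0.0101), in a range of adjusted p from 0.0101 to 0.202 over 17 alternatives. With some 167 to 270 fragments per library behind it, Foxo6 is among the less deeply measured of the 10 genes.

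Foxo1 and Foxo3 differed by less than could be called, and Foxo4 lay close to 0 difference. Foxo1 was at 3.61, 3.997, 3.69 and 3.77 FPKM fed and 4.35, 3.81, 3.95 and 4.02 fasted, a difference of 0.08 (95% interval -0.05 to 0.21; limma adjusted p = 0.36). Foxo3 was at 10.6, 10.1, 10.1 and 12.1 FPKM fed and 11.97, 12.1, 10.1 and 11.7 fasted, a difference of 0.09 (95% interval -0.07 to 0.25; adjusted p = 0.398). Foxo4, which lies on the X chromosome, was at 3.38, 3.55, 3.56 and 2.99 FPKM fed and 4.02, 3.06, 3.19 and 2.86 fasted, a difference of -0.03 (95% interval -0.22 to 0.15; adjusted p = 0.794). The groups overlapped for all 3 genes, and their intervals hold rises of at most 0.25 and falls of at most 0.22 on the log2 scale. The sign for Foxo4 turned with equal-sum and quantile scaling and without fasted replicate 4.

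**Figure D2:**
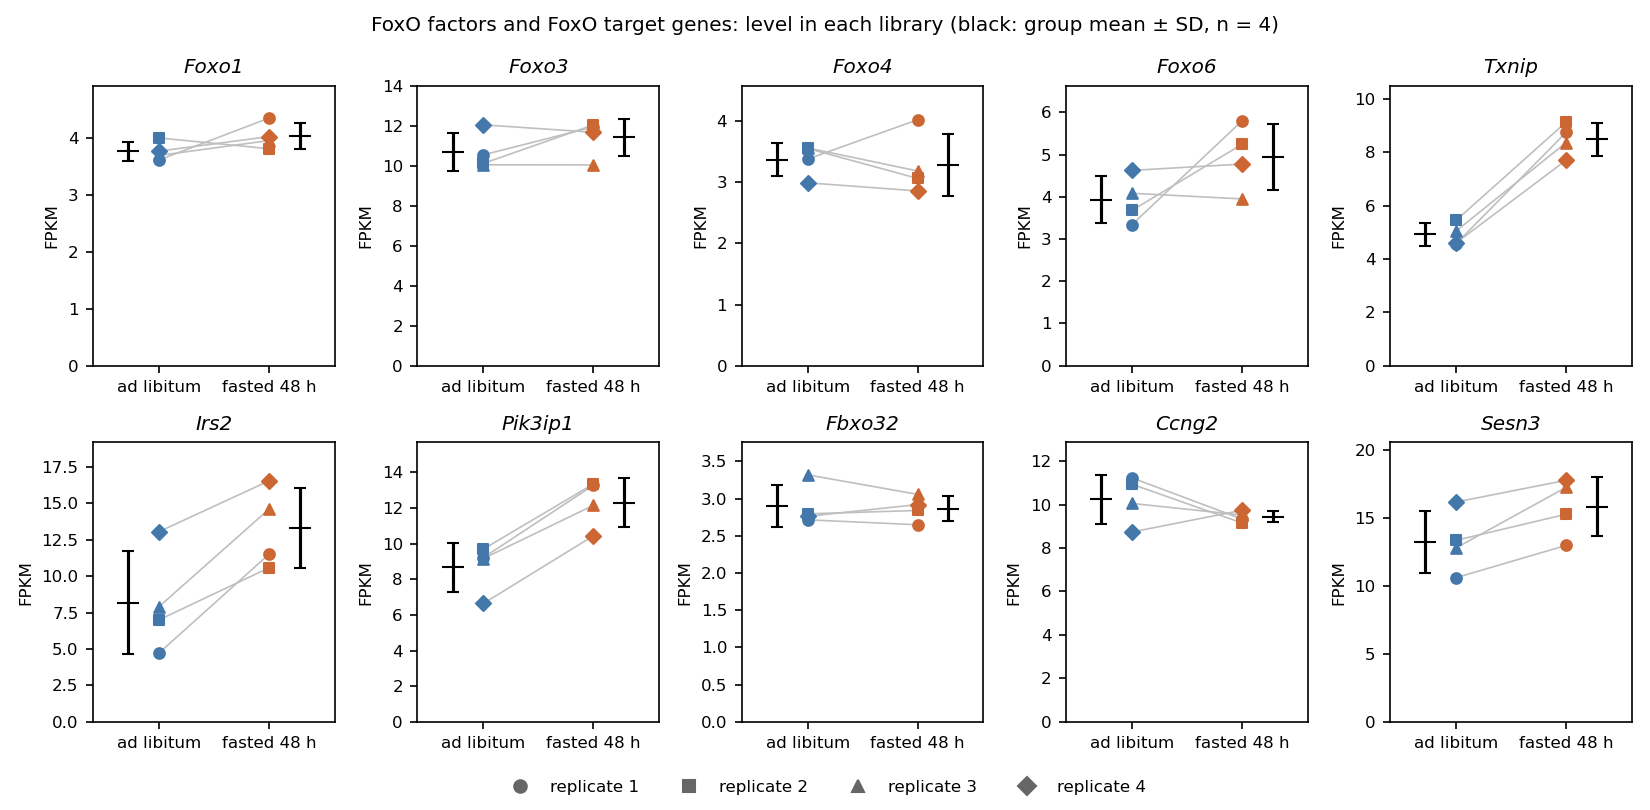
FPKM of each of the 10 genes in every library, fed on the left (blue) and fasted on the right (orange), with marker shapes for the replicate numbers, grey lines joining equal numbers, and black bars for the group mean ± SD (n = 4). Txnip and Pik3ip1 show no overlap between the groups, and every grey line of Txnip, Pik3ip1, Irs2 and Sesn3 goes up.

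Of the 6 target genes 2 rose and 0 fell, and the other 4 did not pass the test. Over the 10 genes this is 2 higher (20%, beside 9.56% of all tested genes) and 0 lower (beside 16.3%), and the groups were without overlap, fasted higher, for the same 2 genes (beside 11.1% of all tested genes). The median change was 0.17 for the 10 genes and -0.02 for all tested genes. In the blocked fit 4 of the 10 were higher and 0 lower (beside 14.3% and 22.1%). Without ad libitum replicate 4 there were 5 higher and 1 lower, beside 1196 higher and 2572 lower of all 12377 tested genes.

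Txnip, which encodes an arrestin-like protein that binds thioredoxin and curbs glucose uptake, rose 1.72-fold in mean FPKM. It was at 4.57, 5.45, 5.05 and 4.601 FPKM in ad libitum replicates 1 to 4 and at 8.74, 9.13, 8.36 and 7.70 in fasted replicates 1 to 4. Every fasted library lay above every fed library, with the lowest fasted and the highest fed value 7.70 and 5.45 FPKM. The group means were 4.92 FPKM ± 0.416 fed and 8.48 ± 0.607 fasted (SD, n = 4 each), and the log2 change was 0.68 (SE 0.0686; adjusted p = 0.000119 by limma). Over 18 alternatives the change ran from 0.65 to 0.79 and the gene was called in each. Txnip (chromosome 3, 96557957 to 96561883, plus strand) is overlapped over its whole length of 3927 bases by the antisense RNA gene Gm15441. Whether the libraries keep strand is not given in the sources used here, so reads of the 2 genes may not be told apart. Gm15441 was listed at 0 in 3 libraries and at no more than 0.0706 FPKM in the others.

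Pik3ip1, which encodes a membrane protein that inhibits the catalytic subunit of PI3K and so acts against AKT, rose 1.42-fold. It was at 9.21, 9.69, 9.16 and 6.64 FPKM fed and at 13.3, 13.3, 12.1 and 10.4 fasted. Replicate 4 was the lowest library of both groups, and the fasted replicate 4 still lay above all fed libraries. The means were 8.67 FPKM ± 1.38 and 12.3 ± 1.36 (SD, n = 4 each), and the log2 change was 0.46 (SE 0.108; adjusted p = 0.00963 by limma). It was called in all 18 alternatives, with changes from 0.35 to 0.58. Gm12592 overlaps Pik3ip1 over 778 bases on the opposite strand and has no values here, so its reads may not be told apart from those of Pik3ip1. Within equal replicate numbers the fasted library was 1.33 to 1.57 times the fed one.

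Irs2, the adaptor through which the insulin and IGF receptors reach PI3K and itself a FoxO target in the liver, had a mean 1.63 times as high in fasted cortex but a wide spread. It was at 4.74, 7.01, 7.92 and 13.1 FPKM fed and at 11.5, 10.6, 14.6 and 16.5 fasted. Ad libitum replicate 4 lay above fasted replicates 1 and 2, while the other 3 fed libraries lay below all fasted ones. The means were 8.18 FPKM ± 3.52 and 13.3 ± 2.76 (SD, n = 4 each), and they differed by 0.70 on the log2 scale (SE 0.270; adjusted p = 0.0984 by limma). With 572 fragments or more in each library, counting alone gives a coefficient of variation of at most 4.18%, against 43% between the fed libraries. Within equal replicate numbers the fasted library was higher 4 of 4 times, by 1.27 to 2.43 times, as for 21.7% of all tested genes (29.5% were lower 4 of 4 times). With the replicate block Irs2 was called (SE 0.128, limma adjusted p = 0.00778), and without ad libitum replicate 4 too (log2 change 0.93, adjusted p = 0.0142). Its adjusted p ran from 0.00778 to 0.210 over all 18 alternatives.

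Sesn3, which encodes a sestrin that restrains mTORC1, had the highest mean of the 10 genes together with a small difference. It was at 10.6, 13.4, 12.8 and 16.2 FPKM fed and at 13.0, 15.3, 17.3 and 17.8 fasted. The groups overlapped, and replicate 1 was the lowest and replicate 4 the highest library in both. The difference was 0.24 on the log2 scale with SE 0.118 and limma adjusted p = 0.150, and with the replicate block 0.24 with SE 0.0538 and adjusted p = 0.00626. It was also called without ad libitum replicate 4 (0.34, adjusted p = 0.0347) and after equal-sum scaling (0.36, adjusted p = 0.0108), and over 18 alternatives its adjusted p ran from 0.00626 to 0.347. Within equal numbers the fasted library was higher 4 of 4 times, by 1.10 to 1.35 times.

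Fbxo32 and Ccng2 did not pass the test. Fbxo32, which encodes atrogin-1, the ubiquitin ligase of muscle wasting, was at 2.71, 2.79, 3.32 and 2.76 FPKM fed and at 2.65, 2.84, 3.06 and 2.92 fasted. Fasted and fed ranges overlapped throughout, with a difference of -0.01 (95% interval -0.16 to 0.14; limma adjusted p = 0.93) whose sign turned in 5 of 17 alternatives. Ccng2, which encodes cyclin G2, an atypical cyclin of growth arrest, was at 11.2, 10.9, 10.05 and 8.74 FPKM fed and at 9.34, 9.15, 9.52 and 9.73 fasted, a difference of -0.10 (95% interval -0.26 to 0.05; adjusted p = 0.317). The fed libraries spread over a wider range than the fasted ones and enclosed them. Ccng2 was called lower without ad libitum replicate 4 (-0.17, adjusted p = 0.0423), had the opposite sign after equal-sum scaling (0.01) and had an adjusted p from 0.0423 to 0.947 over 18 alternatives.

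**Figure D3:**
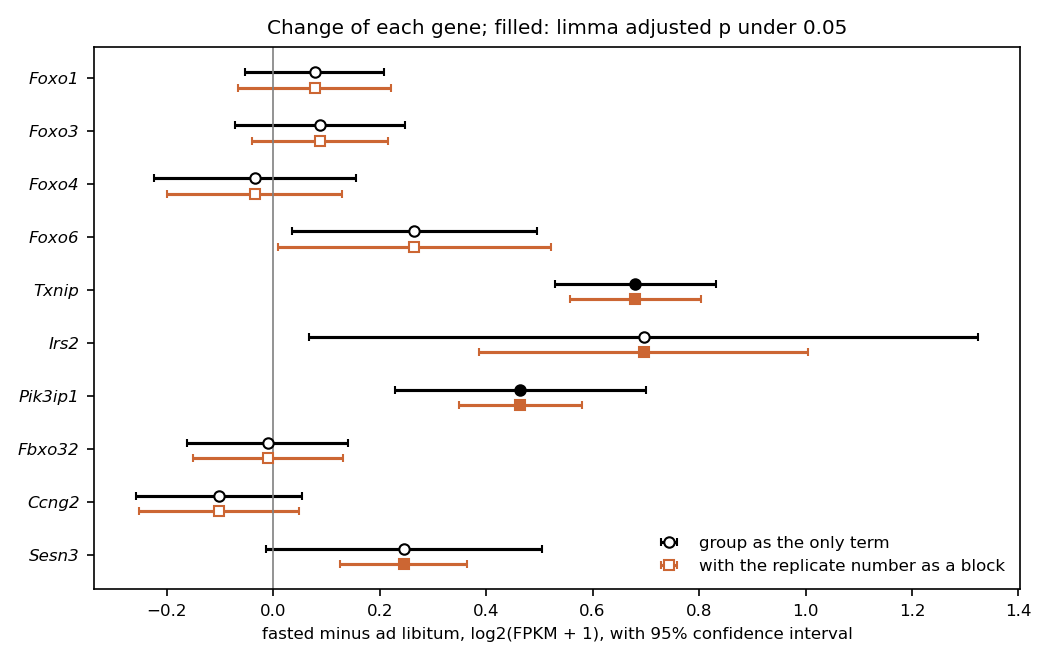
Change of each gene in fasted against fed cortex on the scale of log2(FPKM + 1), with 95% confidence intervals, for the fit on group alone (black circles) and the blocked fit (orange squares); filled symbols passed limma's adjusted p of 0.05. The 2 fits have the same changes, and the intervals of Irs2, Sesn3 and Pik3ip1 are narrower with the block.

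Ordered by their mean level in fed cortex, Sesn3 (13.3 FPKM), Foxo3 (10.7), Ccng2 (10.2), Pik3ip1 (8.67) and Irs2 (8.18) came before Txnip (4.92), Foxo6 (3.93), Foxo1 (3.77), Foxo4 (3.37) and Fbxo32 (2.90). Neighbours in this order overlapped in their fed libraries, except that all Foxo1 values lay above all Foxo4 values. In fasted cortex Irs2 (13.3 FPKM), Pik3ip1 (12.3) and Foxo3 (11.4) lay above Ccng2 (9.43), behind Sesn3 (15.8). Across the fed libraries Irs2 had the largest coefficient of variation of the 10 genes, 43%, and Foxo1 the smallest, 4.42%. In replicate 4 Irs2 and Sesn3 were at their highest in both groups, Pik3ip1 and Foxo4 at their lowest in both, and Ccng2 at its lowest in the fed and its highest in the fasted group.

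Upstream of the factors, in the insulin, PI3K and AKT pathway, 3 of 26 tested genes rose and 3 fell (11.5% each way, beside 9.56% and 16.3% of all genes), and the median change was 0.05. Sgk1, an AKT-related kinase that also phosphorylates FoxO and answers to glucocorticoid hormone, was at 16.1, 17.3, 18.6 and 19.4 FPKM fed and at 43.95, 35.8, 45.9 and 39.2 fasted, a log2 change of 1.16 with SE 0.0823 (limma adjusted p = 1.85e-05). Akt2, the AKT gene tied to insulin action, fell from 28.7, 25.8, 25.6 and 23.3 FPKM to 16.4, 15.965, 14.2 and 15.8. Its groups were far apart, at 25.9 FPKM ± 2.24 and 15.6 ± 0.936 (SD, n = 4 each), so that the log2 change was -0.69 (SE 0.0679; adjusted p = 0.000107 by limma), and it was called in all 18 alternatives. Akt1, named here after its values were seen, was at 0.08 and did not pass (adjusted p = 0.453). Phlpp1, which encodes a phosphatase that acts on AKT, and Mapkap1, which encodes a subunit of the AKT kinase complex mTORC2, had log2 changes of -0.25 and -0.26 (limma adjusted p = 0.00318 and 0.00997). Neither was called after equal-sum scaling (adjusted p = 0.407 and 0.367). The other rises were those of Ptpn1, a phosphatase gene of the insulin receptor, and Pik3cb, a PI3K catalytic subunit gene, and these names too were chosen after their values were seen. With the replicate block 5 rose and 4 fell (19.2% and 15.4%, beside 14.3% and 22.1% of all tested genes in that fit). When any of ad libitum replicates 1, 2 or 3 or fasted replicates 3 or 4 was left out, 1 rose. Of all tested genes 946, 985, 841, 867 and 1064 rose in these fits, against 1183 with all libraries. The receptor genes Insr and Igf1r and the adaptor gene Irs1, also named after their values were seen, were at 0.07, -0.02 and -0.05 and did not pass (adjusted p = 0.452, 0.83 and 0.634).

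Among proteins that bind or modify FoxO, 3 of 28 tested genes rose and 6 fell, and the median change was -0.02. These are 10.7% and 21.4%, beside 9.56% and 16.3% of all tested genes. Xpo1, which encodes the exportin that carries FoxO out of the nucleus, fell from 14.8, 14.9, 15.7 and 17.0 FPKM to 11.2, 9.88, 11.6 and 11.8, a log2 change of -0.45 with SE 0.0662 (limma adjusted p = 9.17e-04). Its groups did not overlap. The other rises were those of Sirt2, a deacetylase gene, and Mdm2, a ubiquitin ligase gene, both named after their values were seen. Ikbkb, which encodes a kinase of the NF-kappaB pathway that can phosphorylate FoxO3, and Ywhaq, which encodes a 14-3-3 protein, had log2 changes of -0.31 and -0.19, and Crebbp, which encodes an acetyltransferase of FoxO, rose by 0.29 (limma adjusted p = 0.00153, 0.0161 and 0.0138). Ywhaq was no longer called when ad libitum replicate 2 or 3 was left out (adjusted p = 0.0509 and 0.051), and Ywhaq and Ikbkb after equal-sum scaling (0.704 and 0.192). The counts moved with single libraries, as did those of all tested genes (1183 higher and 2015 lower with all libraries). Of the partner genes 1 rose without fasted replicate 1 or 3, beside 858 and 867 of all tested genes. Without ad libitum replicate 2 or fasted replicate 2, 3 fell, beside 1433 and 1587. Without ad libitum replicate 3, 2 fell, beside 1406. With the replicate block 7 rose and 7 fell (25% each way, beside 14.3% and 22.1% of all tested genes in that fit).

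**Figure D4:**
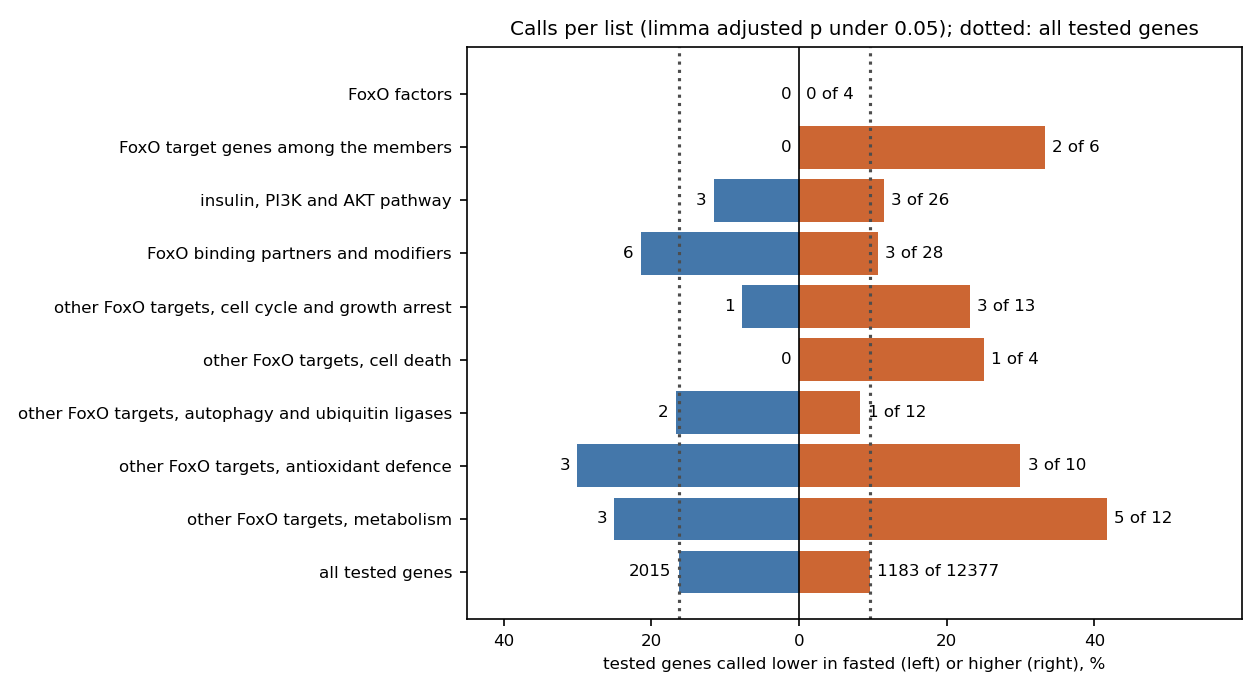
Share of tested genes called higher (right, orange) or lower (left, blue) in fasted cortex for each list, with the counts beside the bars and dotted lines at the shares of all tested genes, 9.56% higher and 16.3% lower. The 4 factors have no bar, and of the metabolic targets 5 of 12 are called higher.

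Other genes known as FoxO targets, 59 apart from the 6 above, were called in both directions. Of the 51 tested, 13 rose and 9 fell (25.5% and 17.6%, beside 9.56% and 16.3% of all tested genes), with a median change of -0.02. The groups were without overlap for 13 higher and 7 lower genes of the 51, beside 11.1% and 16.5% of all tested genes. With the replicate block 16 rose and 11 fell (31.4% and 21.6%, beside 14.3% and 22.1%). Leaving out any library gave 13 rises (all tested genes 841 to 1196, against 1183 with all libraries). It gave 7 to 14 falls (all tested genes 1406 to 2572, against 2015), both highest without ad libitum replicate 4. After equal-sum scaling 2 fell, beside 534 of all tested genes. Some target genes of the fasted liver and muscle were at or near 0 in this tissue. G6pc, Pck1 and Igfbp1, of glucose release and IGF binding, and Trim63, the ubiquitin ligase MuRF1, were not tested. They reached at most 0.0459, 0.0213, 0.104 and 0.181 FPKM in any library and were named after their values were seen. Others, such as Irs2 and Fbxo32 above (means of 8.18 and 2.90 FPKM fed), were expressed and tested.

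Of the metabolic targets 5 of 12 rose and 3 fell (41.7% and 25%, beside 9.56% and 16.3% of all tested genes). Pnpla2, which encodes the triglyceride lipase ATGL, was at 5.35, 4.98, 4.93 and 4.59 FPKM fed and at 11.7, 9.20, 10.2 and 8.49 fasted, a log2 change of 0.86 with SE 0.0860 (limma adjusted p = 0.000114). All fasted libraries lay well above the fed ones. Adipor2, an adiponectin receptor gene, rose by 0.54 on the log2 scale, and Klf15 and Pdk4, a regulator of amino acid use and the brake on pyruvate dehydrogenase, were also among the rises, at 1.86 and 1.48 times their fed means, as was Lpin1, a gene of lipid metabolism. The falls were those of Eif4ebp1, which encodes a repressor of translation, Atf5 and Acaa1a, the last an enzyme of fatty acid oxidation in peroxisomes. Lpin1 and these 3 fall outside the naming rule and were chosen after their values were seen.

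Of the cell cycle and growth arrest targets 3 of 13 rose and 1 fell (23.1% and 7.69%, beside 9.56% and 16.3% of all tested genes). Cdkn1a, which encodes the cell cycle inhibitor p21, was at 8.48, 8.28, 9.73 and 11.5 FPKM fed and at 20.1, 14.1, 18.3 and 19.9 fasted, a log2 change of 0.86 with SE 0.117 (limma adjusted p = 0.000637). The transcription regulator genes Bcl6 and Cited2 rose by 0.44 and 0.36 on the log2 scale (adjusted p = 0.00401 and 0.00557, limma). Ccnd1, which encodes cyclin D1 and is known to be repressed by FoxO, had a log2 change of -0.41 (limma adjusted p = 0.00239). Of the 8 cell death targets 4 were tested, of which 1 rose (25%, beside the same 9.56%) and 0 fell (beside 16.3%). Pmaip1, Fasl, Tnfsf10 and Tradd did not pass the filter. Among these, all named after their values were seen, Pmaip1 had means of 0.599 FPKM fed and 0.830 fasted, and Tnfsf10 of 0.459 and 0.245. Bcl2l11, which encodes the killer protein BIM, went from 1.05 FPKM ± 0.129 to 1.63 ± 0.205 (SD, n = 4 each), and its log2 change was 0.36 (adjusted p = 0.00719 by limma). Its fed values of 0.935, 1.19, 0.952 and 1.13 FPKM lay near the filter, which Bcl2l11 passed only with the fasted libraries counted.

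Of the autophagy and ubiquitin ligase targets 1 of 12 rose and 2 fell, and the median was -0.07. These are 8.33% and 16.7%, near the 9.56% and 16.3% of all tested genes. Atg12 and Ulk2, of the autophagy machinery, had log2 changes of -0.35 and -0.22 (limma adjusted p = 9.77e-04 and 0.012), neither of which was called after equal-sum scaling (0.134 and 0.555). Fbxo21, a ubiquitin ligase gene of muscle wasting like Fbxo32, rose by 0.31 (adjusted p = 0.00641, limma). Of the antioxidant targets 3 of 10 rose and 3 fell (30% each way, beside the same 9.56% and 16.3%). The sestrin genes Sesn1 and Sesn2 rose by 0.55 and 0.32 on the log2 scale, beside the 0.24 of Sesn3 above, and Sepp1, the table's older symbol for the selenium carrier gene Selenop, rose by 0.43 (limma adjusted p = 6.44e-04, 0.0075 and 0.00134). Sod2, which encodes the mitochondrial superoxide dismutase, had a log2 change of -0.18 (limma adjusted p = 0.018), and lost its call without fasted replicate 2 (0.0501) and after equal-sum scaling (0.734). Txn2 and Cat, named after their values were seen, were the other falls.

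**Figure D5:**
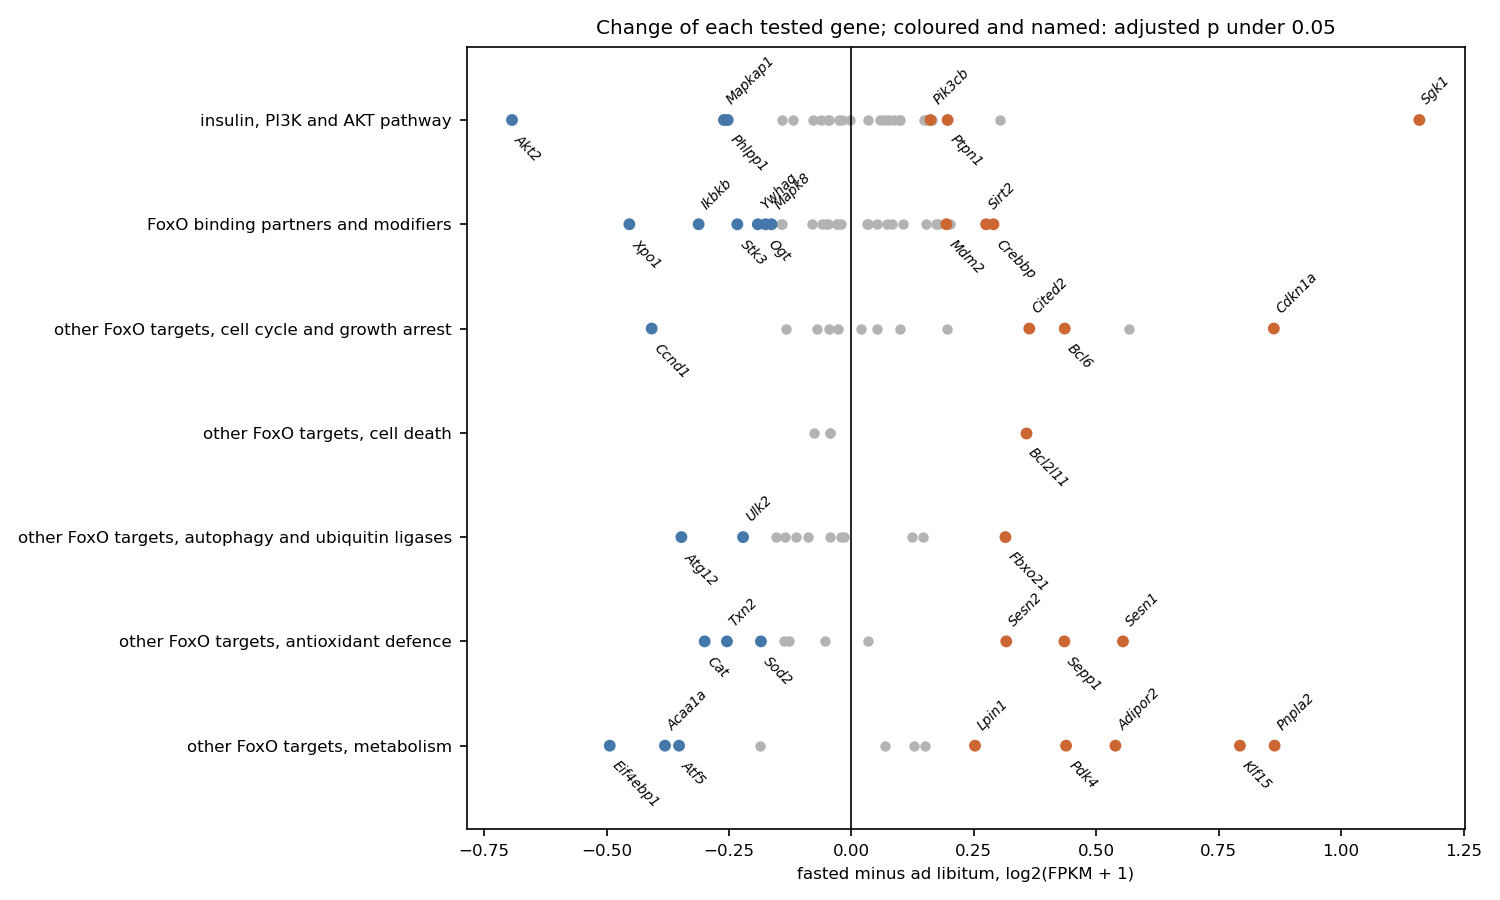
Change of every tested gene of the pathway, partner and target lists on the scale of log2(FPKM + 1), 1 row per list, with genes that passed limma's adjusted p of 0.05 coloured and named and the others grey. Sgk1 at 1.16 and Akt2 at -0.69 stand at the outer ends, and the metabolic targets spread to both sides.

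Other gene groups moved with these results, and their part in them was not tested. Their counts stand beside 9.56% of all tested genes higher and 16.3% lower. Of 13 glucocorticoid-responsive genes 12 rose and 0 fell, with a median of 0.60 and a summed level of 425.1 to 463.4 FPKM in fed and 619.0 to 756.9 in fasted libraries. Fkbp5 and Sult1a1 were at 3.66 and 3.64 times their fed means and Tsc22d3 at 1.88 times. The list holds Sgk1 and Cdkn1a, which are also counted above. Defining markers of cortex were at high levels, with excitatory neuron markers summing to 1061 to 1246 FPKM fed and 1122 to 1290 fasted, inhibitory ones to 338.7 to 470.3 and 349.5 to 442.1. Of the excitatory markers 0 of 7 rose and 4 fell, of the inhibitory 0 of 6 changed in either direction, of the astrocyte markers 1 of 6 rose and 3 fell, and of the oligodendrocyte lineage 1 of 6 rose and 0 fell. Microglia markers fell in 4 of 6 cases, summing to 69.0 to 89.6 FPKM fed and 58.9 to 63.9 fasted, and endothelial and mural markers in 2 of 6, summing to 48.8 to 56.6 and 39.4 to 46.0 FPKM. The astrocyte markers summed to 278.7 to 302.2 and 258.0 to 288.1 FPKM and the oligodendrocyte lineage to 978.2 to 1218 and 1129 to 1384. Choroid plexus, meninges and blood markers passed the filter in 4 of 8 cases and none of these 4 was called, with Ttr between 0.188 and 2.39 FPKM. Markers of neighbouring regions passed in 4 of 7 cases with none called. Gabra6, of the cerebellum, did not pass the filter and was at 0 in 4 libraries. It was at 1.49, 0, 0.258 and 0.309 FPKM fed and at 0, 0, 0 and 0.0598 fasted, so that its traces lay mostly in fed libraries.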

How the data were processed

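Tissue was flash frozen and lysed in QIAzol, and standard Illumina libraries were made, per the labels' protocols. The submitters' processing notes name TopHat and the build mm10; the sources used here do not give its version, the quantifier, the annotation or the strandedness. The deposited values are FPKM. The unit is read from the values: in 3841 genes with a single transcript, low values times length piled up at multiples of 1 step, which also gave the depth.

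Of 24883 rows, 282 symbols stood on several, and the row of highest mean was used. Coordinates are those of GENCODE M21 (GRCm38), which held 23284 symbols. Genes with at least 1 FPKM in 4 or more libraries were tested by limma (version 3.58.1, R 4.3.3) on log2(FPKM + 1), trended and robust, on group alone, with Benjamini-Hochberg adjustment over all 12377. The file holds no counts, so no count test was run. Alternatives were a pseudocount of 0.1, no filter or one at 5 FPKM, other scalings, plain moderation, a replicate block, an odd and even term, and each library left out. The exact permutation test planned for members under the filter was not needed.

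Both groups share replicate numbers. Deviations from the group means correlated, across genes that are no independent replicates, at 0.574, 0.496, 0.382 and 0.523 for numbers 1 to 4, all above the bound of 0.1. The numbers were therefore taken to pair libraries, which no label states. Over 11155 autosomal coding genes the values were 0.335, 0.193, 0.0761 and 0.371, under the bound for number 3. Some unlike numbers passed the bound there too, such as ad libitum 2 with fasted 1 (0.227) and ad libitum 4 with fasted 3 (0.219). Over all tested genes ad libitum 1 with fasted 3 was at 0.381. The pairing is thus an assumption of the blocked fit.

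The members and lists were chosen with earlier results of these data known. Other genes are named by 1 rule: up to 4 called genes per list with the smallest p. Tables and figures were made in Python 3.11.15 (pandas 2.3.3, matplotlib 3.10.9), and the fit was tested on simulated data.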

Additional observations from a re-analysis of the deposited data

Results flagged for a closer look

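Libraries that lay far from the other 3 of their group were looked for in 74 groups of 4 among the named genes, where chance flags about 1 in 20, and 5 were found. Fbxo32 was at 3.32 FPKM in ad libitum replicate 3, the library with both Xist and Y-linked transcripts, and at 2.71 to 2.79 in the other fed libraries. Pdk4 was lowest in replicate 2 of both groups, at 2.75 FPKM fed (others 2.83 to 2.85) and 3.78 fasted (others 4.29 to 4.36). Bcl6 was at 7.26 FPKM in ad libitum replicate 2 (others 6.10 to 6.30) and Sult1a1 at 13.5 FPKM in fasted replicate 1 (others 10.7 to 11.2).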

How the results depend on the processing

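Txnip and Pik3ip1 were called in the same direction in all 18 alternatives. Of 176 comparisons of the members with an alternative, 158 kept direction and call, 0 lost a call, 9 gained 1 and 9 changed sign, all of the last in uncalled genes near 0: Foxo4 (0.0618 with equal-sum and 0.00296 with quantile scaling, -0.114 to 0.0128 leaving out a library, the highest without fasted replicate 4), Fbxo32 (0.0122 median-ratio, 0.0828 equal-sum, 0.0320 quantile, -0.0334 to 0.0404 leaving out a library, above 0 without ad libitum replicate 3 or fasted replicate 1) and Ccng2 (0.0139 equal-sum). Of 483 for other named genes, 473 kept both and 10 lost the call. Members called higher were 2, and 4 with equal-sum scaling or the replicate block, and 2 to 5 leaving out a library; those called lower were 0, and 0 to 1 leaving out a library. Pathway genes called higher were 3, and 5 with median-ratio or quantile scaling, GC and length offsets or the replicate block, and 1 to 4 leaving out a library; called lower 3, and 1 with equal-sum scaling. Partner genes called higher were 3, and 5 with median-ratio or equal-sum scaling, 6 with quantile scaling, 8 with GC and length offsets, 7 with the replicate block, and 1 to 4 leaving out a library; called lower 6, 1 with equal-sum scaling and 2 to 7 leaving out a library. Other targets called lower were 9, 2 with equal-sum scaling and 7 to 14 leaving out a library. Over all genes 1183 were higher and 2015 lower, with 1792 higher after quantile scaling, 2195 with GC and length offsets, and 534 lower with equal-sum scaling. Over all genes the replicate block gave 1773 higher and 2733 lower. Leaving out a library gave 841 to 1196 higher and 1406 to 2572 lower. With ATAAACA in place of GTAAACA 0 of the 7 windows held the motif. A search of the FoxO proteins for the AKT consensus was planned and not run, since protein sequences were not used here. The block changed the call of 2 members, Irs2 and Sesn3. The cause of these differences was not tested. Estimated fragments ran from 167 to 3404 per member and library, for the longest annotated transcript, and changes in Foxo4 and Foxo6 are the least precise by counting (coefficient of variation up to 7.74%).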
